A study of Homo sapiens with 8 samples.

Results

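VEGF, angiopoietin and angiopoietin-like transcripts were followed in AB8 cells, a human line derived from podocytes, in which a CRB2 construct was induced or left off. The set was given by symbol and holds 10 genes of the 58395 in the count table: the ligands VEGFA, VEGFB, VEGFC and PGF, the receptors FLT1 and KDR, the angiopoietins ANGPT1 and ANGPT2, and the angiopoietin-like genes ANGPTL2 and ANGPTL4. The rule for the set uses no measured value. All 8 libraries came from AB8 cells modified with pIND21_hCrb2+GFP_S267A, which lets doxycycline switch on human CRB2 that carries the S267A change together with GFP, at passage 3-8 after modification. The 4 induced libraries came from cells induced with doxycycline, for 48 h per the series title, and the 4 non-induced libraries from cells that carried the construct without the drug. CRB2 is a membrane protein of the Crumbs polarity complex. The comparison asks what differs once the construct is expressed. Cells without the construct, with or without doxycycline, were not analysed here, so the drug and the transgene cannot be told apart. Whether the replicates were grown as separate cultures is not stated in the labels; a p-value here reflects only how these libraries vary, which may be technical.

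VEGF ligands bind receptor tyrosine kinases, chiefly on endothelial cells. VEGFA acts through FLT1 and KDR, PGF and VEGFB bind FLT1, and VEGFC acts on FLT4 in lymphatic endothelium and also on KDR. In the kidney glomerulus the podocyte is the main source of VEGFA for the neighbouring capillary. Angiopoietins signal through the endothelial receptor TEK. ANGPTL4 is a secreted inhibitor of lipoprotein lipase, induced by fatty acids through PPAR receptors and by low oxygen, and podocytes are known to release it in some proteinuric diseases. VEGFA is likewise a target of hypoxia-inducible factors.

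Counted reads ran from 19008593 to 23081616 in induced libraries and from 16829454 to 21731488 in non-induced libraries. CRB2 had 1731, 4246, 4593 and 4475 CPM in induced libraries 1 to 4, against 8.29, 26.0, 26.3 and 21.7 CPM in non-induced libraries 1 to 4, as the labels say. CPM is the usual depth-scaled read count, taken on library totals after TMM scaling in edgeR. Both libraries numbered 1 stood apart from the rest of their groups: the matrix gene THBS1 had 593 CPM in induced library 1 against 5164 to 5272 in the other induced libraries, and 548 CPM in non-induced library 1 against 4498 to 5227 in the other non-induced libraries. Same-numbered libraries deviated together from their group means, so each tested member is given without a replicate block and with a block for that number (the blocked fit). Other genes are given from the blocked fit unless stated. Of the defining podocyte markers, NPHS1 had 3 reads in all 8 libraries together, while SYNPO, CD2AP, FOXC2, PODXL and WT1 were detected. Of 12 endothelial markers, 8 did not pass the filter on low counts, among them EMCN, CLDN5 and PECAM1 with 0, 1 and 6 reads, while ROBO4, EGFL7, EHD3 and VWF did, with 1120, 1422, 1788 and 94 reads in all.

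The proximal promoters of 3 secreted factors are shown because they mark the ends of the behaviour described below: ANGPTL4 varied most, VEGFC differed in the same direction in every pair, and VEGFB varied least. They were taken from RefSeq (GRCh38.p14), 5′ to 3′ on the strand of the gene, from 250 bases before the RefSeq start. Each stretch runs up to that start, as for VEGFC, or up to an annotated exon met before it, as for ANGPTL4 and VEGFB. The ANGPTL4 stretch lies inside the annotated gene, which starts at 8363289. Capitals mark the core hypoxia response element ACGTG, the GC box GGGCGG and the TATA box TATAAA, on either strand. The ANGPTL4 window is chr19:8363905-8364150 on the plus strand, VEGFC is chr4:176792923-176793172 on the minus strand, and VEGFB is chr11:64234334-64234537 on the plus strand.
ANGPTL4: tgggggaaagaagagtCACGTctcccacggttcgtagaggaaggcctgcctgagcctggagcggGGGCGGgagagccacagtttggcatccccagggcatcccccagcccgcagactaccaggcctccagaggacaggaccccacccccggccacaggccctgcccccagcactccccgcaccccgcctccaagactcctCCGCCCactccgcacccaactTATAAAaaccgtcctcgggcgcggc
VEGFC: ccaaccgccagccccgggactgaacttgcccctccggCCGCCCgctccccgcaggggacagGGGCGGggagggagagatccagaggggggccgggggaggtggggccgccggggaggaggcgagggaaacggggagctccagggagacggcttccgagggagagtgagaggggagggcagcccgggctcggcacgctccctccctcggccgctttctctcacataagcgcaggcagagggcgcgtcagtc
VEGFB: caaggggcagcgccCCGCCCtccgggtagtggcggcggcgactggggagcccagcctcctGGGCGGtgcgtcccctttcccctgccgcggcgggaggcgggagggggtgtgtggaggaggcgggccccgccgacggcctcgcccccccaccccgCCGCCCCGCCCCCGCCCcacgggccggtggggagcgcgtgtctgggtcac
The ANGPTL4 window held 1 hypoxia response core, on the minus strand 234 to 230 bases before the start, with GC boxes at 186 to 181 and 50 to 45 bases and a TATA box at 29 to 24 bases. VEGFC held GC boxes alone, at 213 to 208 and 189 to 184 bases. The VEGFB window held 6 GC boxes, of which 2 share a base and the one nearest the start lies beyond the printed stretch. The ACGTG core was present in 18.5% of 35116 such windows over all RefSeq genes, GGGCGG in 42.6% and TATAAA in 10.7%, so each match is a description of these letters and not a site. CCAAT (32.0% of windows) and the AP-1 motif TGANTCA (6.57%) were also searched and had no match in any of the 7 members searched. ANGPT1 and ANGPT2 were left out of the search, and VEGFA had no entry. G and C made up 68.8% of the ANGPTL4 window, 74% of VEGFC and 82.8% of VEGFB, against a median of 58% over all windows.

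VEGFA, VEGFB and VEGFC were measured at moderate levels and PGF was low, while the VEGF receptor tyrosine kinases had few or no reads. Per kilobase of the longest protein-coding transcript, the mean level in induced libraries was highest for VEGFB, at 31.0 ± 1.27 CPM per kb, followed by VEGFA at 21.5 ± 6.87, VEGFC at 21.3 ± 3.36, ANGPTL4 at 1.35 ± 1.33, PGF at 1.30 ± 0.49 and ANGPTL2 at 0.803 ± 0.200 (SD, n = 4). In non-induced libraries the same levels were 29.8 ± 2.19 CPM per kb for VEGFB, 26.8 ± 3.54 for VEGFC, 26.2 ± 2.78 for VEGFA, 7.21 ± 6.07 for ANGPTL4, 1.68 ± 0.15 for PGF and 0.879 ± 0.182 for ANGPTL2 (SD, n = 4). VEGFA and VEGFC lay within each other's spread in both groups, and ANGPTL4 and PGF did so in the induced libraries. The place of VEGFA depends on the transcript length taken: it was 63.5 CPM per kb in induced and 77.1 in non-induced libraries with its principal transcript of 1199 bases, and 5.27 in induced and 6.41 in non-induced libraries over the union of its exons. A deposited gene count cannot tell its isoforms apart.

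The receptors and angiopoietins were at or near 0. KDR, the main signalling receptor for VEGFA, had 0 reads in all 8 libraries, which allows at most 3 reads per library, or 0.131 to 0.179 CPM by counting error alone. FLT1, the other VEGFA receptor, had 0, 2, 0 and 0 reads in induced libraries 1 to 4, against 0, 0, 1 and 0 in non-induced libraries 1 to 4. ANGPT1, the activating TEK ligand, had 0, 1, 5 and 1 reads in induced libraries, against 0, 1, 5 and 3 in non-induced libraries. ANGPT2, its context-dependent antagonist, had 0, 2, 2 and 0 reads in induced libraries, against 1, 0, 2 and 0 in non-induced libraries. A difference between the groups was not detectable at this depth for these 4 genes, and none passed the filter on low counts. ANGPT2 lies inside MCPH1 on the opposite strand and shares 78 exonic bases with it and whether reads were counted by strand is not stated.

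**Figure D1:**
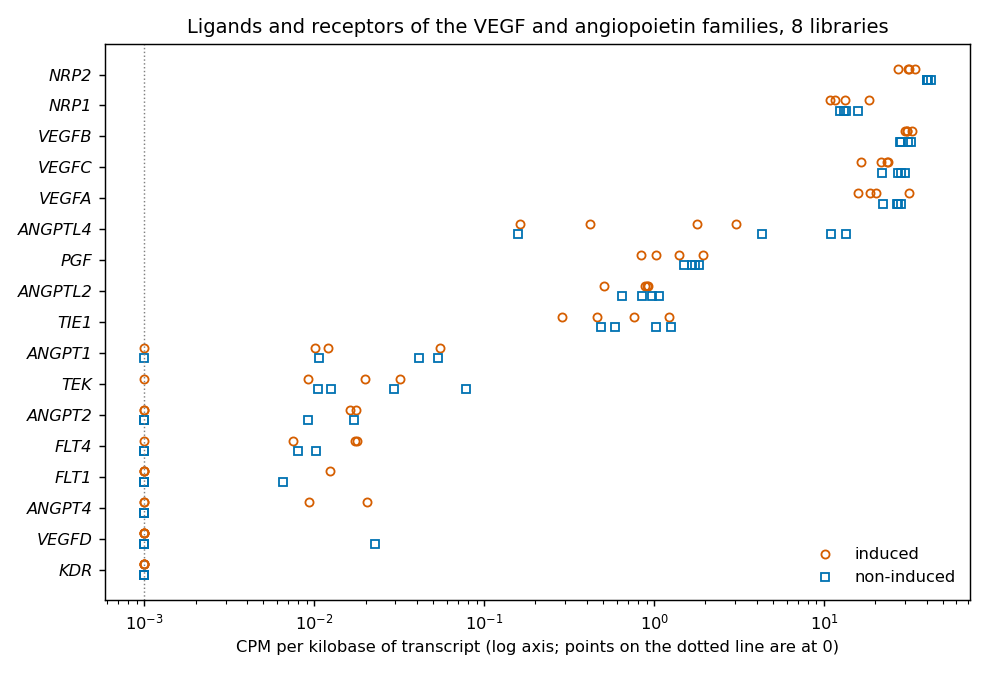
Level of each member and of the other VEGF and angiopoietin ligands and receptors in each library, in CPM per kilobase of the longest protein-coding transcript on a log axis; circles are induced and squares non-induced libraries, and values of 0 are drawn on the dotted line. VEGFA, VEGFB, VEGFC, NRP1 and NRP2 lie above 10 CPM per kb in every library, while FLT1, KDR, ANGPT1 and ANGPT2 lie at or near 0.

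Of the 6 members that could be tested, 0 passed the threshold without the replicate block (edgeR quasi-likelihood test, Benjamini-Hochberg FDR 0.05 over 15637 genes), where 0.0384% of all genes passed. At an unadjusted p under 0.05 the same test had 1 member, VEGFC, and 1466 genes in all, and DESeq2 without the block called 0 members, against 1.53% of all genes. With the replicate block, 2 members passed, ANGPTL4 and VEGFC, both lower in induced cells, where 13.8% of all genes passed, 6.29% lower and 7.51% higher. DESeq2 with the block also called 2 members, both lower, where it called 7.08% of all genes and 3.43% as lower. The median log2 change of the 6 members was -0.31 without and -0.32 with the block, beside 0.00 over all genes tested in both fits. The CPM ranges of the groups overlapped for all 6 tested members, while they did not overlap for 7.04% of all genes tested, 3.82% higher and 3.22% lower in induced cells. With so few members, a count of 0 is not far from that share. The 4 members not tested also overlap, but at or near 0 reads, where overlap carries no information. Exact permutation tests over the 70 labelings of the libraries gave p between 0.0857 and 0.571 for the 6 members, with 0.0286 the smallest value this design allows.

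ANGPTL4 (ENSG00000167772, chromosome 19 from 8363289 to 8374373, plus strand, GRCh38) was the member with the largest difference, lower in induced cells in 3 pairs and level in pair 1. It had 6, 131, 70 and 15 reads in induced libraries 1 to 4, against 6, 440, 541 and 136 reads in non-induced libraries 1 to 4. In CPM this was 0.303, 5.72, 3.33 and 0.787 in induced libraries, against 0.298, 20.5, 25.2 and 8.12 in non-induced libraries. Both libraries numbered 1 were lowest of their group. Every induced library lay below non-induced libraries 2 to 4, and the groups overlap through non-induced library 1 alone. The mean was 2.54 ± 2.51 CPM in induced and 13.5 ± 11.4 CPM in non-induced cells (SD, n = 4 each). In bulk libraries, fewer cells with a transcript and less of it per cell cannot be told apart.

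The induced over non-induced ratio of ANGPTL4 was 1.02 in pair 1, 0.279 in pair 2, 0.132 in pair 3 and 0.0969 in pair 4. Pair 1 rests on 6 reads in each library, so that its ratio has an exact 95% counting interval of 0.272 to 3.81, which includes the ratio of pair 2 but not those of pairs 3 and 4. Unblocked, its log2 change was -2.40 (SE 1.08, edgeR adjusted p = 0.548). With the replicate block it was -2.41 (SE 0.32, adjusted p = 0.0127), and only 2 of the genes tested had a lower value in that fit. ANGPTL4 fell in the blocked fit also when any pair was left out, with changes between -2.90 and -2.13 and edgeR adjusted p between 0.000408 and 0.0471. DESeq2 gave -2.42 without the block (adjusted p = 0.459) and -2.19 with it (SE 0.63, adjusted p = 0.0104). The exact permutation p was 0.257 over libraries and 0.25 over the sign changes of the 4 pairs, where 0.125 is the smallest value possible.

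The spread of ANGPTL4 within a group was itself wide, with a pooled SD of 2.32 on the log2 CPM scale, rank 25 among 15637 genes. The 3 genes whose log2 CPM followed ANGPTL4 most closely over the 8 libraries were HMGA2, a chromatin protein (r = 0.987), CLIP2 (r = 0.986) and TMEM41A (r = 0.982). HMGA2 had 101, 217, 206 and 139 CPM in induced libraries 1 to 4, against 128, 323, 320 and 245 CPM in non-induced libraries 1 to 4. Its low values were thus in the libraries numbered 1 of both groups, as for ANGPTL4, and its change with the block was -0.59 (edgeR adjusted p = 0.00206). These correlations describe 8 libraries of which 2 stand apart. ANGPTL4 meets the antisense gene RAB11B-AS1 at 1 base, and that gene had 25 to 49 reads per library.

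**Figure D2:**
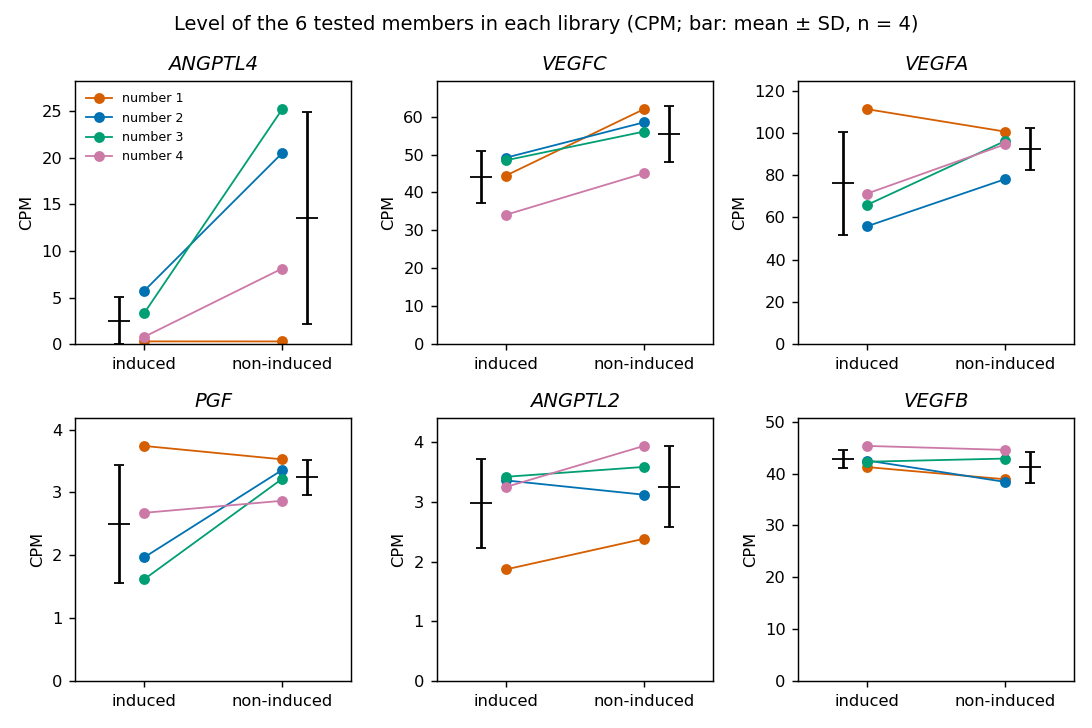
CPM of the 6 tested members in each library, each panel starting at 0, with induced libraries left of non-induced libraries, lines joining libraries of the same number and black bars giving the group mean and SD (n = 4). ANGPTL4 is lowest in library 1 of both groups and highest in non-induced libraries 2 and 3, while VEGFB lies between 38.4 and 45.3 CPM throughout.

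VEGFC (ENSG00000150630, chromosome 4 from 176683538 to 176792727, minus strand), the lymphatic growth factor, was lower in the induced library of every pair. It had 44.4, 49.2, 48.5 and 34.1 CPM in induced libraries 1 to 4, against 61.9, 58.5, 56.0 and 45.0 CPM in non-induced libraries 1 to 4. Library 4 was lowest in both groups, and only non-induced library 4 fell within the induced range. The mean was 44.0 ± 6.94 CPM in induced and 55.4 ± 7.30 CPM in non-induced cells (SD, n = 4 each). The log2 change was -0.33 in both fits, with an SE of 0.13 and edgeR adjusted p = 0.492 without the block, and an SE of 0.05 and adjusted p = 0.000991 with it. Differences per pair were -0.48, -0.25, -0.21 and -0.40 on the log2 scale. With the block VEGFC passed without any 1 of the pairs (changes of -0.38 to -0.29, edgeR adjusted p between 0.00101 and 0.0106). The exact permutation p was 0.0857 over libraries and 0.125 over pairs, the smallest possible for 4 pairs.

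The genes nearest to VEGFC over the 8 libraries were BIRC3, an inhibitor of apoptosis (r = 0.967), the AP-1 subunit FOSL1 (r = 0.964) and ALOX5AP, a helper of leukotriene synthesis (r = 0.961). FOSL1 had 304, 339, 325 and 275 CPM in induced libraries 1 to 4, against 366, 360, 370 and 303 CPM in non-induced libraries 1 to 4, with library 4 lowest in both groups. Its change with the block was -0.17 (edgeR adjusted p = 0.00802). BIRC3 changed by -0.66 (adjusted p = 0.130) and ALOX5AP by -0.38 (adjusted p = 0.0784) in the same edgeR fit, neither past the threshold. Among the members, VEGFC ran opposite to VEGFB, with r = -0.79.

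VEGFA (ENSG00000112715, chromosome 6 from 43770184 to 43786487, plus strand) was lower in the induced library of 3 pairs and higher in pair 1. It had 111, 55.9, 66.0 and 71.3 CPM in induced libraries 1 to 4, against 101, 78.2, 96.3 and 94.7 CPM in non-induced libraries 1 to 4. Induced library 1 was the highest of all 8, and the other 3 induced libraries lay below every non-induced library. The mean was 76.1 ± 24.3 CPM in induced and 92.4 ± 9.83 CPM in non-induced cells (SD, n = 4 each). The log2 differences were 0.14, -0.48, -0.54 and -0.41 in pairs 1 to 4.

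The fitted log2 change of VEGFA was -0.28 (SE 0.20, edgeR adjusted p = 0.750) without the block and -0.32 (SE 0.14, adjusted p = 0.254) with it. Without pair 1 the blocked change was -0.49 (SE 0.05, edgeR adjusted p = 2.25e-05), past the threshold, where 10.9% of all genes passed. The unblocked fit without pair 1, added after the data were seen, gave -0.48 (edgeR adjusted p = 0.0544). Without pair 2, 3 or 4 the adjusted p of the blocked fit was 0.501, 0.467 and 0.524 in edgeR. Without robust estimation of the spread the blocked change of -0.32 had an adjusted p of 0.0416 in edgeR, so the call for VEGFA turns on pair 1 and on how outlying spread is weighted. The exact permutation p over libraries was 0.229. An antisense gene overlaps VEGFA by 188 bases and had at most 1 read in a library.

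PGF (ENSG00000119630, chromosome 14 from 74941834 to 74955784, minus strand), placental growth factor, was low and showed the same order of pairs as VEGFA. It had 3.74, 1.97, 1.62 and 2.68 CPM in induced libraries 1 to 4, against 3.53, 3.36, 3.22 and 2.87 CPM in non-induced libraries 1 to 4, from 34 to 74 reads per library. Induced library 1 was again the highest of all, and the other induced libraries lay below every non-induced one. Over the 8 libraries PGF and VEGFA correlated at r = 0.837, the closest of the 15 pairs of tested members. Unblocked, the change was -0.38 (SE 0.25, edgeR adjusted p = 0.724); blocked, it was -0.41 (SE 0.18, adjusted p = 0.156), and -0.63 without pair 1 (adjusted p = 0.0624), not past the threshold. NCKIPSD (r = 0.969), CCDC106 (r = 0.942) and AGAP4 (r = 0.935) were nearest to PGF, and HESX1 (r = 0.976), PCLAF (r = 0.972) and HEATR6-DT (r = 0.970) nearest to VEGFA.

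VEGFB (ENSG00000173511, chromosome 11 from 64234538 to 64238793, plus strand), a FLT1 ligand linked to fatty acid handling, was the steadiest member. It had 41.2, 42.5, 42.3 and 45.3 CPM in induced libraries 1 to 4, against 38.9, 38.4, 42.9 and 44.6 CPM in non-induced libraries 1 to 4. The groups overlap over most of their range, with means of 42.8 ± 1.75 CPM in induced and 41.2 ± 3.03 CPM in non-induced cells (SD, n = 4 each). In both fits its log2 change was 0.06, and the edgeR adjusted p was 0.885 unblocked and 0.454 blocked. Its pooled SD within groups was 0.09 on the log2 scale, rank 13112 from the widest of 15637. RNLS (r = 0.943), H2AC11 (r = 0.933) and ZNG1B (r = 0.928) had the nearest patterns.

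ANGPTL2 (ENSG00000136859, chromosome 9 from 127087332 to 127122883, minus strand), a secreted protein tied to inflammation, had 1.87, 3.36, 3.42 and 3.25 CPM in induced libraries 1 to 4, against 2.38, 3.12, 3.59 and 3.94 CPM in non-induced libraries 1 to 4. Library 1 was lowest in both groups and the groups overlap. The log2 change came to -0.13 in both fits (edgeR adjusted p = 0.934 unblocked and 0.607 blocked), and it was 0.037 without induced library 1. CCDC159 (r = 0.991), the mitotic cyclin CCNB1 (r = 0.988) and FOXC2-AS1 (r = 0.985) followed it most closely. ANGPTL2 and ANGPTL4 correlated at r = 0.751, with library 1 lowest in both groups for both genes. ANGPTL2 lies within RALGPS1 on the opposite strand without sharing exonic bases, and RALGPS1 had 66 to 118 reads per library.

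**Figure D3:**
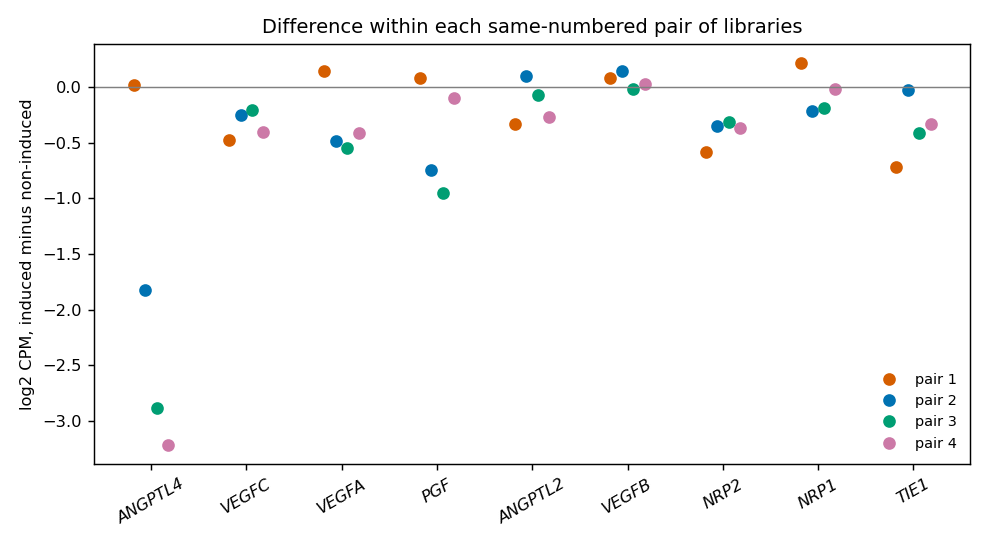
Difference of log2 CPM, induced minus non-induced, in each same-numbered pair of libraries, for the 6 tested members and for NRP2, NRP1 and TIE1; a point is 1 pair. VEGFC, NRP2 and TIE1 lie below 0 in all 4 pairs, whereas ANGPTL4, VEGFA and PGF lie below 0 in pairs 2 to 4 and between 0.02 and 0.14 in pair 1.

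Among the other VEGF and angiopoietin ligands and receptors, 3 of 7 could be tested and NRP2 alone fell, in the blocked fit. NRP2, the neuropilin that serves as co-receptor for VEGFC, had 182, 210, 228 and 208 CPM in induced libraries 1 to 4, against 272, 267.2, 283 and 267.2 CPM in non-induced libraries 1 to 4. Every induced library lay below every non-induced one, as for 3.22% of all genes tested. The means were 207 ± 19.0 CPM in induced and 272 ± 7.66 CPM in non-induced cells (SD, n = 4 each). The log2 change was -0.40, with edgeR adjusted p of 0.128 without the block and 7.61e-05 with it (SE 0.04), and with the block it passed without any 1 of the pairs (edgeR adjusted p of 0.00165 or less).

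NRP1, the co-receptor for VEGFA, had 109, 63.4, 67.6 and 77.9 CPM in induced libraries 1 to 4, against 93.4, 73.3, 76.9 and 78.8 CPM in non-induced libraries 1 to 4. As with VEGFA, induced library 1 was the highest of the 8, and the change with the block was -0.05 (edgeR adjusted p = 0.712). TIE1, a partner of TEK, had 1.11, 4.76, 2.95 and 1.78 CPM in induced libraries, against 1.89, 4.85, 3.96 and 2.27 CPM in non-induced libraries, with a blocked change of -0.32 (edgeR adjusted p = 0.196). TEK itself had 19 reads over all 8 libraries, the lymphatic receptor FLT4 had 7, ANGPT4 had 3 and VEGFD had 1. Of 6 further ANGPTL genes none reached the filter; ANGPTL6 had 28 reads in all and ANGPTL7 had 3.

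Over all lists outside the members, 0 of 141 genes tested passed without the block and 38 passed with it, 13 higher and 25 lower in induced cells. Of all genes tested, 0.0384% passed without the block and 13.8% with it, 7.51% higher and 6.29% lower. These shares stand beside the count of every list in the fits on all 8 libraries, and no list was tested as a set. For these 38 genes the edgeR adjusted p without the block lay between 0.128 and 0.984. On all 8 libraries with the filter on low counts, the list calls below thus pass in edgeR only with the block. The called genes named below were picked by smallest p in the blocked fit. Groups without overlap and calls that hold without a pair therefore follow in part from that choice. Over all genes tested the groups did not overlap for 7.04%, 3.82% higher and 3.22% lower in induced cells. Without a filter, edgeR without the block called 2 list genes. DESeq2 without the block called 8 list genes, where it called 1.53% of all genes. The surroundings of ANGPTL4 held calls in both directions. Of 4 tested lipoprotein lipase partners, 1 rose and 1 fell with the block and the median change was -0.11. LPL, the lipase itself, was not among these calls and its groups overlap. It had 2.88, 4.72, 5.75 and 2.31 CPM in induced libraries 1 to 4, against 3.92, 4.94, 5.83 and 1.31 CPM in non-induced libraries 1 to 4. SEL1L, an ER protein needed for maturation of lipoprotein lipase, had 138, 141, 139 and 129 CPM in induced libraries, against 112, 113, 102 and 84.2 CPM in non-induced libraries, and rose by 0.42 (SE 0.05, edgeR adjusted p = 0.000174). The groups do not overlap for SEL1L. LIPG, endothelial lipase, had 3.03, 1.09, 1.52 and 0.734 CPM in induced libraries, against 8.69, 1.63, 1.399 and 2.15 CPM in non-induced libraries; its blocked change of -0.99 (edgeR adjusted p = 0.0286) was lost without pair 1 (adjusted p = 0.222) and without pair 4 (adjusted p = 0.126).

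Of 16 tested PPAR receptors and fatty acid targets, the blocked fit had 0 higher and 4 lower, with a median change of -0.01. PLIN2, the lipid droplet coat protein, had 70.8, 80.6, 76.2 and 71.1 CPM in induced libraries, against 81.1, 111, 110 and 89.1 CPM in non-induced libraries, without overlap, and its change was -0.38 (SE 0.05, edgeR adjusted p = 0.000527). CPT1A, which brings fatty acids into mitochondria, had 3.23, 45.0, 38.7 and 32.2 CPM in induced libraries, against 4.02, 58.3, 51.8 and 36.7 CPM in non-induced libraries. It was far lower in the libraries numbered 1 of both groups, and its blocked change was -0.34 (edgeR adjusted p = 0.00168). The β-oxidation enzymes ACADVL and ACAA2 both changed by -0.22 (edgeR adjusted p of 0.00248 and 0.00283). These 4 calls also passed without any 1 of the pairs.

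Low oxygen is the other known inducer that VEGFA and ANGPTL4 share. In the blocked fit 0 of 25 tested targets of hypoxia-inducible factors rose and 7 fell, with a median change of -0.17, beside 6.29% of all genes lower. The number that fell was 14 without pair 1, where 5.79% of all genes fell, and 5 or 6 without another pair. PFKFB4, a regulator of glycolysis, had 22.1, 37.3, 36.1 and 32.6 CPM in induced libraries, against 39.4, 50.8, 58.3 and 58.8 CPM in non-induced libraries, with no overlap and a change of -0.70 (SE 0.06, edgeR adjusted p = 3.89e-05). Its relative PFKFB3 changed by -0.40 (adjusted p = 2.32e-05) in the same edgeR fit. CA12, a carbonic anhydrase, had 5.26, 9.09, 6.75 and 6.72 CPM in induced libraries, against 6.71, 15.0, 16.1 and 15.1 CPM in non-induced libraries, and its change was -0.90 (SE 0.13, edgeR adjusted p = 0.00173).

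The oxygen-sensing genes themselves were split, with 3 of 10 tested rising and 3 falling in the blocked fit and a median of 0.10. CITED2, an inhibitor of HIF transcription, had 369, 268, 289 and 321 CPM in induced libraries, against 234, 218, 219 and 194 CPM in non-induced libraries, and rose by 0.52 (SE 0.07, edgeR adjusted p = 0.00609) without overlap. ARNT2, a partner subunit of HIF proteins, rose by 0.53 (adjusted p = 0.000339), and HIF1AN, which hydroxylates HIF1A, rose by 0.14 (adjusted p = 0.0297) in that edgeR fit. HIF1A had 188, 168, 169 and 173 CPM in induced libraries, against 216, 189, 188 and 187 CPM in non-induced libraries, with a change of -0.16 (SE 0.03, edgeR adjusted p = 0.00799). The calls of CITED2, ARNT2 and HIF1A held without any 1 of the pairs, and that of HIF1AN did so only without pair 2. Of 12 regulators of VEGFA RNA and translation, 0 passed in the blocked edgeR fit, and 1 did under DESeq2 with the block; the abundant splicing factors HNRNPA2B1 and SRSF1 changed by -0.11 and 0.05.

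**Figure D4:**
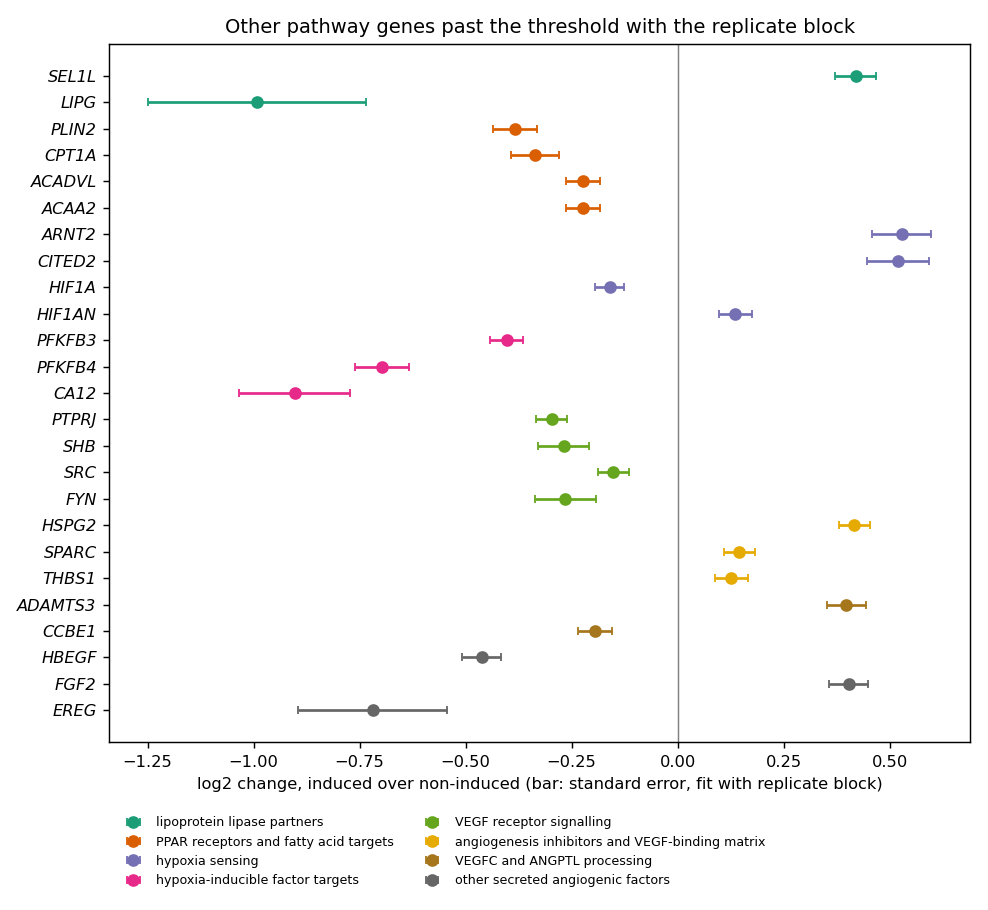
Log2 change, induced over non-induced, with its standard error in the edgeR fit with the replicate block, for the named pathway genes that passed FDR 0.05 in that fit, coloured by list. The named targets of hypoxia-inducible factors and PPAR receptors lie below 0, while SEL1L, HSPG2, ADAMTS3 and FGF2 lie between 0.40 and 0.42.

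Of 19 tested genes of the VEGF receptor signalling list, 1 rose and 5 fell with the block, with a median of -0.03. The list is named for the pathway only, since KDR had 0 and FLT1 had 3 reads in all 8 libraries together. The gene that rose is not among those named here. The phosphatase PTPRJ had 78.2, 116, 116 and 97.3 CPM in induced libraries, against 100, 144, 141 and 115 CPM in non-induced libraries, and changed by -0.30 (SE 0.04, edgeR adjusted p = 0.000211). The adaptor SHB changed by -0.27 (adjusted p = 0.00901), and the kinases SRC and FYN by -0.15 (adjusted p = 0.0136) and -0.27 (adjusted p = 0.0251) in the same edgeR fit. PTPRJ passed without any 1 of the pairs, while SHB, SRC and FYN each lost the call when 1 or more pairs were left out. Without pair 3 or without pair 4 the list had 2 calls.

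Of 12 tested angiogenesis inhibitors and VEGF-binding matrix genes 3 rose and 0 fell with the block, with a median of 0.12. HSPG2, the basement membrane proteoglycan perlecan, had 388, 450, 443 and 381 CPM in induced libraries, against 308, 341, 331 and 266.8 CPM in non-induced libraries, with no overlap, and rose by 0.42 (SE 0.04, edgeR adjusted p = 1.17e-05). SPARC rose by 0.15 (adjusted p = 0.0166) and THBS1 by 0.13 (adjusted p = 0.0398) in the same edgeR fit. Both calls were lost without pair 1 (adjusted p = 0.0590 and 0.0678 in edgeR), which left 1 gene, HSPG2.

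Processing of VEGFC involves the protease ADAMTS3 and its cofactor CCBE1. Of 6 tested genes of that list 1 rose and 1 fell with the block, with a median of 0.00 to 2 decimals. ADAMTS3 had 84.2, 93.5, 90.3 and 104 CPM in induced libraries, against 61.0, 77.7, 71.2 and 72.6 CPM in non-induced libraries, and rose by 0.40 (SE 0.05, edgeR adjusted p = 0.00012). CCBE1 had 138, 131, 136 and 135 CPM in induced libraries, against 168, 146, 144 and 162 CPM in non-induced libraries, and changed by -0.20 (SE 0.04, edgeR adjusted p = 0.00654). Neither gene's groups overlap, and both calls held without any 1 of the pairs.

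Of 14 other secreted angiogenic factors 1 rose and 2 fell in the blocked fit, with a median of -0.10. FGF2, basic fibroblast growth factor, had 244, 175, 180 and 169 CPM in induced libraries, against 167, 147, 141 and 123 CPM in non-induced libraries, and rose by 0.40 (SE 0.05, edgeR adjusted p = 0.000126). The EGF receptor ligand HBEGF had 37.4, 88.1, 87.2 and 71.4 CPM in induced libraries, against 45.6, 131, 120 and 99.9 CPM in non-induced libraries, with library 1 lowest in both groups and a change of -0.46 (SE 0.05, edgeR adjusted p = 3.89e-05). EREG, another ligand of that family, averaged 1.62 ± 0.31 CPM in induced and 2.67 ± 0.59 CPM in non-induced cells (SD, n = 4 each), a change of -0.72 (edgeR adjusted p = 0.0151) that was lost without pair 3 (adjusted p = 0.114).

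Marker levels were summed for each cell type. The summed level of the 12 endothelial markers was 18.9 to 29.9 CPM in induced and 21.6 to 35.6 CPM in non-induced libraries, with 1 of the 12 at 0 in all libraries. Of 4 tested, 1 fell with the block: ROBO4, an endothelial receptor, averaged 5.45 ± 1.72 CPM in induced and 8.34 ± 0.82 CPM in non-induced cells (SD, n = 4 each), a change of -0.63 (edgeR adjusted p = 0.00788). The 8 mesangial and pericyte markers summed to 40.5 to 55.5 CPM in induced and 38.5 to 46.0 CPM in non-induced libraries, and 1 of 5 tested, PDGFRB, rose by 0.34 (edgeR adjusted p = 0.0299). The 8 leukocyte markers summed to 2.19 to 2.98 CPM in induced and 3.46 to 3.92 CPM in non-induced libraries, without overlap, and 0 of 3 tested passed, CSF1R changing by -0.65 (edgeR adjusted p = 0.0586) and LST1 by -0.58 (adjusted p = 0.129). The 13 podocyte markers summed to 315.6 to 342 CPM in induced and 287 to 331 CPM in non-induced libraries, and 2 of 8 tested, PLCE1 and PODXL, rose by 0.46 and 0.49 (edgeR adjusted p of 0.00367 and 0.0350). CD2AP alone had 237 to 254 CPM in induced and 205 to 242 CPM in non-induced libraries. WT1 and PODXL had at most 4.60 and 4.15 CPM in a library, below PDGFRB at 10.8 to 17.6 CPM. The sums thus do not rank the cell types. The part of these markers in the results for the members was not tested.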

How the data were processed

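Total RNA of 8 libraries (4 induced, 4 non-induced, AB8 cells) was sequenced as directional libraries. The file holding raw counts of reads for each Ensembl gene was deposited by the authors; their normalized table, the same counts divided by a factor per library, was not used. Per the submitters' processing notes the tools were bcl2fastq, Trimmomatic 0.38, HISAT2 2.1.0, HTSeq 0.11.1 and DESeq2 1.24.0 on hg38/GRCh38; roles, annotation release and strand setting are not stated. Of 58395 genes 58275 matched GENCODE 29, as did all 207 list entries.

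Genes were kept by filterByExpr (minimum count 10), leaving 15637, scaled by TMM and compared by the edgeR 4.0.16 quasi-likelihood test with robust estimation (R 4.3.3, two-sided, Benjamini-Hochberg FDR 0.05). SE is the log2 change divided by the root of F. Log2 CPM use a prior count of 2. DESeq2 1.42.0, other scalings, other filters, no robust estimation, left-out libraries and a replicate block were alternatives. Over 11500 genes the deviations of same-numbered libraries from their group means correlated at 0.911, 0.704, 0.707 and 0.648, and those of other pairs at -0.775 to 0.667. By that measure the numbers were taken to pair the libraries; what a number marks is not in the labels, and because both libraries numbered 1 lie far from the rest, the remaining libraries correlate across groups in part by construction. Members and lists were chosen with earlier results of these data known. Named genes are all members, the VEGF and angiopoietin family, per other list up to 4 genes called with the block (otherwise the 2 most abundant), the 3 genes most correlated with each tested member, and genes overlapping a member. Values of some of these and of some markers are not reported here. The zero limit of 3 counts and the count interval cover counting error only.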

Additional observations from a re-analysis of the deposited data

Results flagged for a closer look

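Among 63 named genes tested in 126 groups of 4 libraries, 16 groups had a library far from the other 3 by Dixon's criterion, 13 of them a library numbered 1; chance flags about 1 in 20 groups. One was a member: ANGPTL2 had 1.87 CPM in induced library 1, against 3.25 to 3.42 CPM in the other induced libraries. THBS1 had 593 CPM in induced library 1, with 5164 to 5272 in the others of that group, and 548 CPM in non-induced library 1, with 4498 to 5227 in the others. In induced library 1 SRSF1 had 367 CPM (418 to 428 in the others) and FGF2 had 244 CPM (169 to 180 in the others). In non-induced library 1 LIPG had 8.69 CPM (1.399 to 2.15 in the others), HIF1A had 216 CPM (187 to 189 in the others) and CA12 had 6.71 CPM (15.0 to 16.1 in the others). Further flags were in genes named because they followed a member, so they are not independent of it. In induced library 1 HESX1 had 1.52 CPM (0.743 to 0.839 in the others), HEATR6-DT 0.859 CPM (0.262 to 0.333), CCNB1 239.7 CPM (291 to 300.4) and FOXC2-AS1 0.303 CPM (0.839 to 0.918). In non-induced library 1 CCDC106 had 28.9 CPM (25.7 to 26.2 in the others), and in non-induced library 4 FOSL1 had 303 CPM (360.1 to 370.3). RAB11B-AS1, which meets ANGPTL4, had 1.85 CPM in induced library 3 (1.31 to 1.36 in the others of that group) and 2.28 CPM in non-induced library 3 (1.39 to 1.49 in the others).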

How the results depend on the processing

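The replicate block changed the calls most. Over all genes the count past FDR 0.05 was 6 without and 2159 with the replicate block, 240 with DESeq2 and 1107 with DESeq2 and the block, 37 without a filter and 2711 without a filter with the block. With the block it was 2150 under RLE, 2208 under upper-quartile scaling, 2199 with library totals, 2170 with a filter at 1 CPM and 2067 without robust estimation. Leaving out 1 library gave 3 to 16 genes without the block (16 without induced library 1 and 3 without induced library 2, 3 or 4 or non-induced library 2 or 4), and leaving out a pair 909 to 1969 with it (1721, 1969, 1254 and 909 without pairs 1, 2, 3 and 4). Without both libraries numbered 1 and without the block, chosen after seeing the data, it was 543.

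Members called were 0 without the block, 2 with it under edgeR, DESeq2, each scaling and each filter, 3 without robust estimation, and 2 to 3 when a pair was left out. Other list genes called were 0 without and 38 with the block, 8 with DESeq2 and 29 with DESeq2 and the block, 39 under RLE, 38 under upper quartile, 36 with library totals, 39 at 1 CPM and 40 without robust estimation (all with the block), 2 without a filter and 51 without a filter with the block, 21 without replicate 1 and without the block, and 25 to 40 when a pair was left out (26 without pair 3).

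With the block ANGPTL4 passed at -2.41, and also under DESeq2 (-2.19), RLE (-2.42), upper quartile (-2.42), library totals (-2.41), no filter (-2.42), 1 CPM (-2.42) and no robust estimation (-2.41). VEGFC passed at -0.33, and also under DESeq2 (-0.34), RLE (-0.33), upper quartile (-0.34), library totals (-0.33), no filter (-0.34), 1 CPM (-0.33) and no robust estimation (-0.33). VEGFA passed with the block at -0.49 without pair 1 and at -0.32 without robust estimation. Leaving out 1 library or pair gave ranges of -3.18 to -1.91 for ANGPTL4, -0.42 to -0.23 for VEGFC, -0.53 to -0.16 for VEGFA, -0.65 to -0.22 for PGF, 0.02 to 0.09 for VEGFB and -0.25 to 0.037 for ANGPTL2, which turned positive (0.037) without induced replicate 1. With a pair left out under the block ANGPTL4 had -2.46, -2.90, -2.13 and -2.27 and VEGFC -0.29, -0.36, -0.38 and -0.32 without pairs 1, 2, 3 and 4. PGF and VEGFB passed under none of the alternatives. The cause was not tested. Depth limits FLT1, KDR, ANGPT1 and ANGPT2: without a filter 9 members were tested, FLT1, ANGPT1 and ANGPT2 among them, and these 3 were not called with or without the block, while KDR had no read to compare.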

Other observations

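CXCL8, a chemokine of the list of secreted angiogenic factors that was chosen here after its values were seen, had 183, 590, 596 and 325 CPM in induced libraries 1 to 4, against 1200.2, 1266, 1311 and 1271 CPM in non-induced libraries 1 to 4. The groups do not overlap. Its log2 change was -1.58 without the block (edgeR adjusted p = 0.205) and -1.72 with it (SE 0.39, adjusted p = 0.0930), not past the threshold in either fit.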
